A study of Saccharomyces cerevisiae with 4 samples.

Results

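The tricarboxylic acid (TCA) cycle genes examined here are CIT1, ACO1, IDH1, IDH2, KGD1, KGD2, LSC1, LSC2, SDH1 and MDH1 of Saccharomyces cerevisiae, chosen by name as genes of mitochondrial cycle enzymes. The choice was made with earlier results of these data known. All 10 were present among the 4970 counted regions and all 10 passed the filter on low counts, which left 4845 genes. The assay was 4tU-seq, in which growing cells take up 4-thiouracil and the RNA made in that time is purified through its thiol and sequenced. The groups were BY4741 cells in which SYC1 was replaced by kanMX (syc1::kanMX, the knockout, n = 2) and BY4741 wild-type cells (n = 2), all grown in YPD at 30 °C until OD600 reached 0.8 and then given 5 mM 4-thiouracil for 6 min. The knockout is a single strain, and the auxotrophic deletions of BY4741 are shared by both groups. Syc1 is the subunit that defines the APT complex, and the comparison asked how RNA synthesis changes without it.

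In the TCA cycle, acetyl-CoA made from pyruvate is joined to oxaloacetate and oxidized stepwise in the mitochondrial matrix, and the electrons are passed to the respiratory chain. The same enzymes supply 2-oxoglutarate for glutamate synthesis. In yeast growing on glucose, respiration is repressed. Many cycle genes are activated by the HAP complex, a CCAAT-binding activator of respiratory genes. When respiratory function is reduced, CIT1, ACO1, IDH1 and IDH2 come under the retrograde regulators Rtg1 and Rtg3, which bind the R box GTCAC and are best known for activating CIT2.

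The libraries held between 22880058 and 26089573 counts in the knockout and between 35203133 and 36175417 in wild-type. For SYC1 itself 1 and 2 reads were counted in the knockout libraries, against 743 and 794 in the wild-type libraries (edgeR log2 fold change −8.22 ± 0.25 SE, adjusted p 2.18e-07; with so few reads this value is set in part by the prior count). The ratio of knockout to wild-type was 0.00316 (exact 95% interval 0.000651 to 0.00925, counting error only). The BY4741 auxotrophic markers LEU2, MET17 and URA3 had 0 counts in every library, and HIS3 was not analysed here. The a-cell receptor gene STE2 was counted in all 4 libraries, at 287 to 312 CPM (counts scaled to the TMM-adjusted library size) in the knockout and 723 to 735 CPM in wild-type. Of the α-cell genes analysed, MF(ALPHA)1 had 0 to 5 counts, STE3 70 to 110 and SAG1 1982 to 3387, and neither STE3 nor SAG1 was called. The paper describes the replicates as biological.

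The promoters are shown first, and a link between their motifs and the changes given below was not tested. Each promoter was taken as the 250 bases before the start of the counted region, read from RefSeq assembly R64 (sacCer3), and was searched on both strands for the R box GTCAC, whose reverse complement is GTGAC, and for the HAP core CCAAT, whose reverse complement is ATTGG. The HAP core was found in 6 of the 10 members, CIT1, ACO1, IDH1, KGD1, SDH1 and MDH1, and in 35.5% of all 4909 mRNA promoters. The R box was found in 3 of the 10, IDH1, LSC2 and SDH1, and in 22.4% of all mRNA promoters. The windows below hold a match in capitals with up to 10 bases on either side, on the strand of the gene. CIT2 and DLD3 are shown beside the members because both are known targets of Rtg1 and Rtg3. In CIT2 the GTCAC match overlaps a CCAAT match on the same strand. The match in LSC2, a further HAP core match each in SDH1 and MDH1, and the only HAP core match of CIT2 are not printed.
CIT1, CCAAT match (chrXIV:631340-631364, minus strand): cttttgtgttATTGGaggatcgcaa
ACO1, CCAAT match (chrXII:737741-737765, minus strand): catcaaacctCCAATcgctgccggt
IDH1, GTCAC match (chrXIV:559343-559365, minus strand): cgtcatagGTCACtcatcaacca
IDH1, CCAAT match (chrXIV:559132-559156, minus strand): cttccgcttcATTGGcttattcttg
KGD1, CCAAT match (chrIX:122361-122385, plus strand): cacataaatgATTGGcaaagggact
SDH1, GTCAC match (chrXI:171458-171482, minus strand): tcgttatggaGTCACggctttgagg
SDH1, CCAAT match (chrXI:171432-171456, minus strand): cgggggtggaCCAATcacagcgcag
MDH1, CCAAT match (chrXI:278866-278890, plus strand): ctcagcgttcATTGGctcaatcacg
CIT2, GTCAC match (chrIII:122510-122534, minus strand): tatgaaattgGTGACgttaatctaa
DLD3, upstream GTCAC match (chrV:16185-16209, plus strand): gccacagttgGTGACcgccaaatct
DLD3, downstream GTCAC match (chrV:16202-16226, plus strand): ccaaatctaaGTCACgcgcggaaac

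IDH2, KGD2 and LSC1 had neither motif in the window. A match is a run of letters and says nothing of binding.

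All 10 TCA cycle genes had higher CPM in both knockout libraries than in either wild-type library, a separation in that direction that 40.5% of all genes tested showed. The opposite separation was shown by none of the 10 and by 43.2% of all genes. Of the 10, 7 were called up, a call being an edgeR adjusted p below 0.1 with more than a 1.5-fold change, against 9.08% of all genes tested. None was called down, against 8.15%. Because the members were chosen with earlier results of these data known, these counts are description without a test. All 10 passed the adjusted p on the higher side, as did 33.5% of all genes. IDH1, KGD2 and LSC1 passed it but lay under the fold change minimum. The log2 fold changes lay between 0.33 for IDH1 and 0.79 for SDH1, with a median of 0.67, beside −0.02 over all genes tested. The 7 called genes spanned 0.61 to 0.79.

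**Figure D1:**
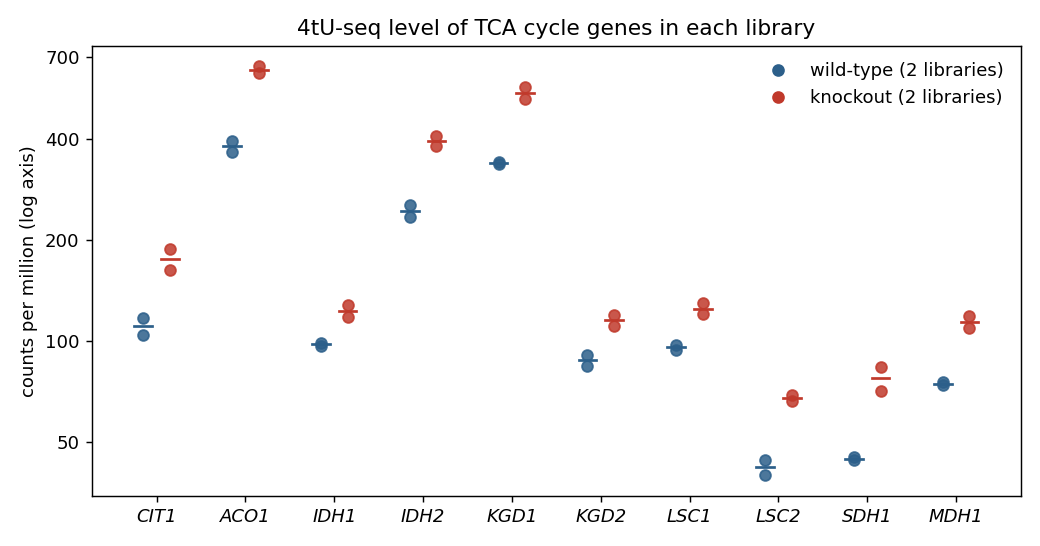
CPM (log axis) of the 10 TCA cycle genes in each of the 4 libraries; points are libraries and short bars are group means of n = 2. In every gene both knockout points lie above both wild-type points.

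CIT1 (YNR001C, chromosome XIV, 629433 to 631161, minus strand) encodes mitochondrial citrate synthase, the enzyme that opens the cycle. It had 163 and 188 CPM in the knockout libraries and 117 and 104 CPM in the wild-type libraries. The groups did not overlap, although CIT1 had the widest spread between replicates relative to its level in wild-type (111 ± 9.45 CPM, SD, n = 2). It rose by 0.66 ± 0.08 on the log2 scale (SE, adjusted p 0.000217, edgeR). The call was lost without knockout replicate 2 (0.56) and without wild-type replicate 2 (0.58).

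ACO1 (YLR304C, chromosome XII, 734966 to 737587, minus strand) encodes aconitase, an iron-sulfur enzyme that turns citrate into isocitrate and also helps to maintain mitochondrial DNA. It had 630 and 658 CPM in the knockout and 394 and 366 CPM in wild-type, the highest CPM of the 10 genes in each library. The lowest knockout value was 1.60 times the highest wild-type value, the widest gap among the members. ACO1 rose by 0.76 ± 0.06 on the log2 scale (SE, adjusted p 1.44e-05), and it was the 1 member called in each of the alternatives tried.

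IDH1 and IDH2 encode the regulatory and the catalytic subunit of NAD-dependent isocitrate dehydrogenase, which makes 2-oxoglutarate. IDH2 (YOR136W, chromosome XV, 580143 to 581513, plus strand) had 409 and 380 CPM in the knockout and 254 and 234 CPM in wild-type. It rose by a log2 fold change of 0.69 ± 0.06 (SE, adjusted p 3.56e-05). IDH1 (YNL037C, chromosome XIV, 557795 to 559115, minus strand) had 128 and 118 CPM in the knockout and 98.6 and 96.8 CPM in wild-type. Its log2 fold change of 0.33 ± 0.06 (SE, adjusted p 0.00156) was the smallest of the 10. IDH1 overlaps GPI15 on the other strand by 102 nt, the only such overlap among the members.

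KGD1 and KGD2 encode the E1 and E2 components of 2-oxoglutarate dehydrogenase, which releases CO2 and makes succinyl-CoA. KGD1 (YIL125W, chromosome IX, 122405 to 125996, plus strand) had 525 and 573 CPM in the knockout and 341 and 336 CPM in wild-type. It rose by a log2 fold change of 0.70 ± 0.06 (SE, adjusted p 2.35e-05). KGD2 (YDR148C, chromosome IV, 753392 to 755089, minus strand) had 111 and 120 CPM in the knockout and 91.1 and 84.3 CPM in wild-type. The log2 fold change of KGD2 was 0.39 ± 0.07 (SE, adjusted p 0.000994), a fold of 1.31.

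LSC1 and LSC2 encode the alpha and beta subunits of succinyl-CoA ligase, which makes succinate and a nucleoside triphosphate. LSC2 (YGR244C, chromosome VII, 977925 to 979427, minus strand) had 66.1 and 69.0 CPM in the knockout and 44.3 and 39.8 CPM in wild-type. It rose by a log2 fold change of 0.68 ± 0.07 (SE, adjusted p 7.97e-05). LSC1 (YOR142W, chromosome XV, 592865 to 594237, plus strand) had 120 and 130 CPM in the knockout and 94.0 and 97.6 CPM in wild-type. The log2 fold change of LSC1 was 0.38 ± 0.06 (SE, adjusted p 0.000793). In the main fit, then, a single subunit gene of each of these 3 enzymes passed the fold change minimum. Without normalization factors IDH2 (0.54), KGD1 (0.54) and LSC2 (0.53) lay under it as well. With an offset for region length KGD1 (0.48) also lay under it.

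SDH1 (YKL148C, chromosome XI, 168975 to 171306, minus strand) encodes the flavoprotein subunit of succinate dehydrogenase, the cycle enzyme that is also complex II of the respiratory chain. It had 71.1 and 83.7 CPM in the knockout and 44.2 and 45.1 CPM in wild-type. The wild-type libraries lay close together while the knockout libraries were spread (77.4 ± 8.89 CPM, SD, n = 2). Its log2 fold change of 0.79 ± 0.08 (SE, adjusted p 7.43e-05) was the largest of the 10, above that of 94.4% of genes tested.

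MDH1 (YKL085W, chromosome XI, 279043 to 280162, plus strand) encodes mitochondrial malate dehydrogenase, which regenerates oxaloacetate. It had 109 and 119 CPM in the knockout and 75.2 and 74.1 CPM in wild-type. Its log2 fold change of 0.61 ± 0.06 (SE, adjusted p 6.30e-05), a fold of 1.53, was the closest to the minimum among the called members. Without knockout replicate 2 it was 0.55 and MDH1 was not called.

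**Figure D2:**
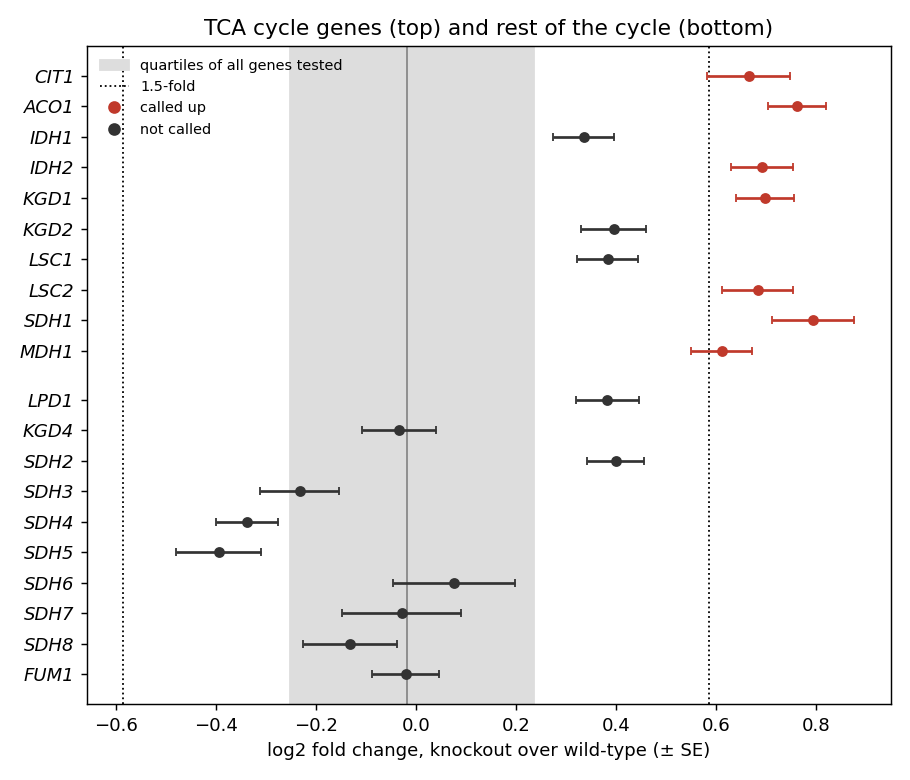
Log2 fold change of knockout over wild-type (± SE, n = 2 each) for the 10 TCA cycle genes and for 10 further genes of the mitochondrial cycle; the grey band marks the quartiles of all genes tested and dotted lines mark a 1.5-fold change. The first 10 genes all lie right of the band (0.33 to 0.79). Of the further genes, LPD1 (0.38) and SDH2 (0.40) also lie right of it, SDH4 (−0.34) and SDH5 (−0.39) lie left of it, and 3 have values above 0.

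Together the 10 genes took 0.224% (Wilson 95% interval 0.222% to 0.226%) and 0.228% (0.226% to 0.230%) of all counts in the knockout libraries. In wild-type they took 0.163% (0.162% to 0.164%) and 0.157% (0.155% to 0.158%). The intervals cover counting error only. The mean shares were 0.226% ± 0.00272 for knockout and 0.160% ± 0.00433 for wild-type libraries (SD, n = 2), and their ratio was 1.42. ACO1 alone held between 24.8% and 27.0% of the counts of the 10 genes and KGD1 between 21.9% and 23.5%. Without ACO1 the ratio was 1.38.

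For comparison between genes, CPM were divided by the length of the counted region in kb. In wild-type, IDH2 stood highest with 178 ± 10.5 CPM per kb, followed by ACO1 (145 ± 7.38) and KGD1 (94.3 ± 0.90; SD, n = 2). SDH1 stood lowest with 19.1 ± 0.27 CPM per kb, after LSC2 with 28.0 ± 2.10. The highest level was 9.31 times the lowest in wild-type and 8.66 times in the knockout. Along the wild-type order the libraries of neighbouring genes lay apart in each case but that of MDH1 (66.7 ± 0.74) and CIT1 (64.0 ± 5.46), which overlapped. IDH2 thus lay above 86.6% of genes tested in wild-type by this length-scaled level, and SDH1 above 12.5%.

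The order of the levels was largely kept in the knockout, where 6 of the 10 genes held the same place. The other 4 changed places among themselves. In wild-type they ran IDH1, LSC1, MDH1 and CIT1, and in the knockout MDH1 (102 ± 5.73 CPM per kb), CIT1, IDH1 (93.2 ± 5.51) and LSC1 (91.0 ± 5.08; SD, n = 2). The knockout libraries of neighbours among these 4 overlapped, and the order of the 4 genes differed between the replicates.

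**Figure D3:**
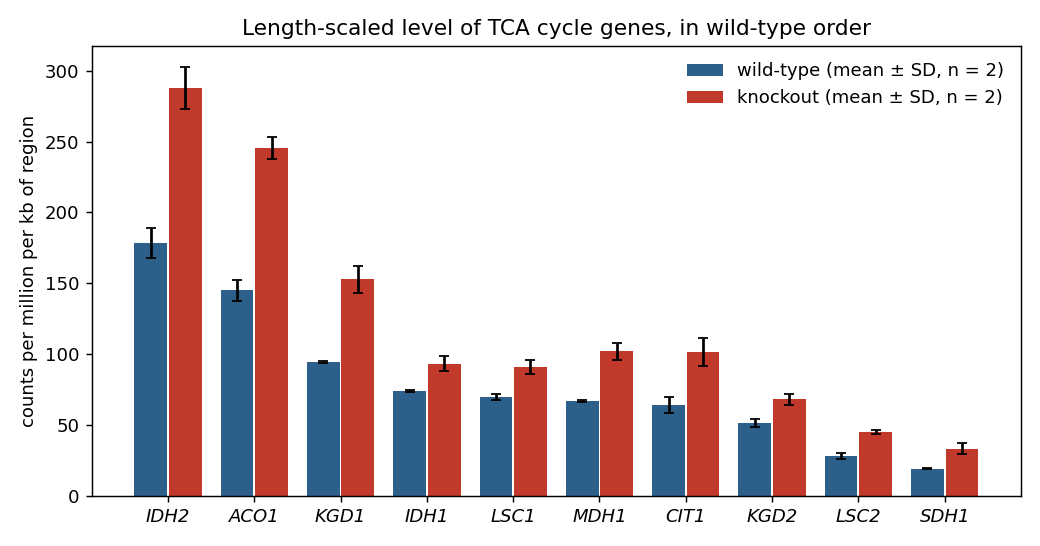
Level of each TCA cycle gene per kb of counted region (mean ± SD, n = 2 libraries), ordered by the wild-type level. IDH2, ACO1 and KGD1 are highest and SDH1 lowest in both groups.

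The subunit pairs were then compared within each library, since a library's scaling cancels in such a ratio. A trend with region length does not cancel, and no offset for length was applied to the ratios. The counted regions are 1321 and 1371 nt long for IDH1 and IDH2, 1373 and 1503 nt for LSC1 and LSC2, and 3592 and 1698 nt for KGD1 and KGD2. In the length-offset fit given below, the log2 fold change was 0.48 for KGD1 and 0.30 for KGD2. The ratio of IDH1 to IDH2, in counts per kb, was 0.326 and 0.322 in the knockout, against 0.402 and 0.429 in wild-type. The ratio of KGD1 to KGD2 was 2.24 and 2.26 in the knockout, against 1.77 and 1.89 in wild-type. The ratio of LSC1 to LSC2 was 1.99 and 2.06 in the knockout, against 2.32 and 2.68 in wild-type. The knockout libraries lay apart from the wild-type libraries in all 3 pairs, and the group ratios differed by factors of 0.779, 1.23 and 0.809 in that order. Of all single genes tested, 40.5% were separated upward in the knockout and 43.2% downward. No such share was computed for ratios of gene pairs, so the separation is description only. With 2 libraries against 2 an exact two-sided permutation test cannot go below p = 0.333, so no test is given.

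LPD1 (dihydrolipoamide dehydrogenase, the E3 component that 2-oxoglutarate dehydrogenase shares with pyruvate dehydrogenase) was read against both partners, a choice made after the values were seen. The ratio of KGD2 to LPD1 was 0.625 and 0.613 in the knockout, against 0.620 and 0.606 in wild-type, which overlap. That of KGD1 to LPD1 was 1.40 and 1.39 in the knockout, against 1.10 and 1.14 in wild-type. SDH1 was read in the same way against its partners in succinate dehydrogenase. Its ratio to SDH2, the iron-sulfur subunit gene, was 0.459 and 0.531 in the knockout, against 0.377 and 0.376 in wild-type, which do not overlap. For the membrane anchor genes the group means differed by larger factors, 2.03 for SDH3 and 2.20 for SDH4. The anchor genes are shorter, at 751 nt for SDH3 and 843 nt for SDH4 beside 2332 nt for SDH1. Fold change moved with region length over all mRNAs (Spearman rho 0.33), and these ratios hold no offset for length. The ratio of SDH1 to SDH4 was 0.464 and 0.568 in the knockout, against 0.239 and 0.231 in wild-type.

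**Figure D4:**
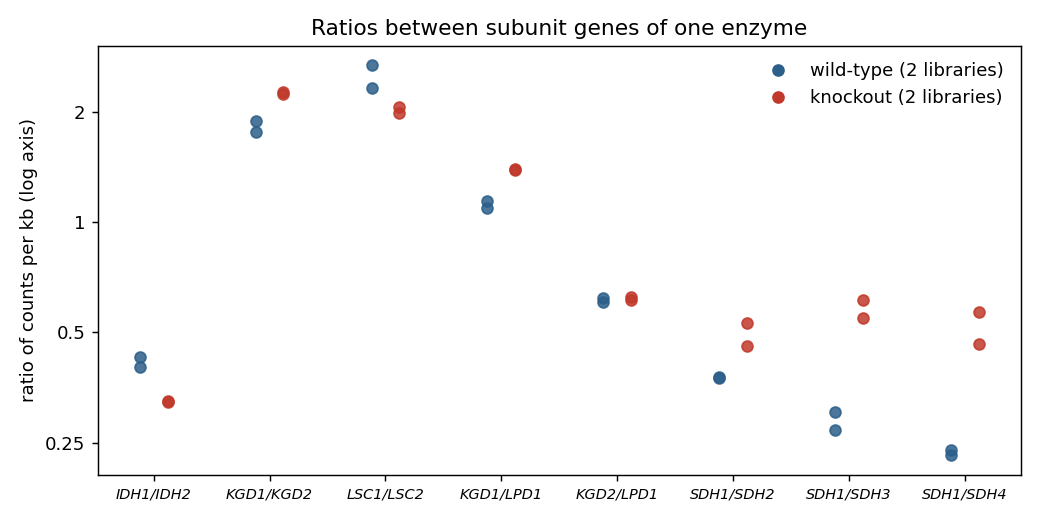
Ratio of counts per kb between subunit genes of an enzyme in each library (log axis; points are libraries). Knockout and wild-type libraries separate in each pair but KGD2/LPD1. The share of other gene pairs that separate was not computed.

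The 10 other genes of the mitochondrial cycle, from succinate dehydrogenase partners to fumarase, were read next. None was called in either direction, beside 9.08% of all genes tested called up and 8.15% called down. Their median log2 fold change was −0.03. LPD1 (0.38 ± 0.06 SE, adjusted p 0.000928) and SDH2, the iron-sulfur subunit (0.40 ± 0.06, adjusted p 0.000430), passed the adjusted p on the higher side, both under the fold change minimum. SDH3 (−0.23 ± 0.08, adjusted p 0.0311) and SDH4 (−0.34 ± 0.06, adjusted p 0.00168), the membrane anchors, and SDH5 (−0.39 ± 0.09, adjusted p 0.00393), needed to attach FAD to Sdh1, passed it on the lower side (edgeR). FUM1, the fumarase gene that acts between SDH1 and MDH1, had 92.8 and 104 CPM in the knockout and 99.4 and 100.1 CPM in wild-type, with a log2 fold change of −0.02 ± 0.07 (SE, adjusted p 0.799). KGD4, which holds the E3 component in place, had −0.03 ± 0.07. The assembly factors SDH6 (0.08 ± 0.12), SDH7 (−0.03 ± 0.12) and SDH8 (−0.13 ± 0.09) did not pass the adjusted p, and their signs, like that of KGD4, change with the scaling or the length offset. Succinate dehydrogenase genes therefore ran from −0.39 to 0.79 on the log2 scale.

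Length differs between these sets and moves with the fold change. The counted regions of the 10 members are 1120 to 3592 nt long and those of the other cycle genes 438 to 1638 nt. Across 4802 mRNAs the log2 fold change and the region length had a Spearman rho of 0.33, and across the 10 members one of 0.68; genes of the same libraries are not independent replicates. With an offset for length in each library, all 10 members were still higher, the median was 0.58 and 5 were called. Of all 4845 genes tested, 415 were called up under that offset. CIT1 (0.56) and KGD1 (0.48), the longest member, then fell short of the minimum. The other cycle genes had a median of 0.09 under that offset, with none called. LPD1, at 1638 nt, FUM1, at 1511 nt, and SDH2, at 1227 nt, lie within the members' range of lengths. SDH3 no longer passed the adjusted p with the offset (−0.082, adjusted p 0.372, edgeR), nor without knockout replicate 1 (0.128) or without wild-type replicate 2 (0.245).

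Genes of related steps were counted from lists taken from textbook knowledge. Over all genes tested, 9.08% were called up and 8.15% down, and each list count below is to be read beside these shares. The lists are short, and their counts are description without a test. SFC1 and ADH2 lay under the filter, and some listed genes, among them SHH3 and RTG1, were not analysed here. Of 10 isozymes and paralogs tested, 2 were called up and 1 down. CIT2, the peroxisomal citrate synthase gene, had 491 and 532 CPM in the knockout and 209 and 214 CPM in wild-type. Its log2 fold change, 1.27 ± 0.06 (SE, adjusted p 6.67e-07 by edgeR), lay above that of each member. IDP2, a cytosolic NADP-dependent isocitrate dehydrogenase gene, had 23.8 and 22.8 CPM against 11.4 and 10.6 CPM (1.08 ± 0.09 SE, adjusted p 2.45e-05). MDH2, the cytosolic malate dehydrogenase gene, had 393 and 409 CPM in the knockout and 643 and 626 CPM in wild-type. Its fall (−0.66 ± 0.05 SE, adjusted p 1.82e-05) was opposite in direction to the rise of the mitochondrial MDH1.

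Among the genes of pyruvate entry, 2 of 9 were called up and none down. PYC1, a pyruvate carboxylase gene that supplies oxaloacetate, had 422 and 550 CPM in the knockout and 270 and 288 CPM in wild-type (0.80 ± 0.11 SE, adjusted p 0.000347). Of its 50-mers 8.22% are repeated in the genome, so part of its count is uncertain. In the lowest of the alternatives with all libraries, PYC1 was at 0.57 and was not called. MPC3, a subunit of the mitochondrial pyruvate carrier, had 12.8 and 12.5 CPM against 6.46 and 8.73 CPM (0.74 ± 0.15 SE, adjusted p 0.00259). MPC3 is the convergent neighbour of LSC2 and was not called without wild-type replicate 1 (0.54).

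Of 6 carriers of cycle acids tested, 1 was called in each direction. OAC1, the oxaloacetate carrier gene, had 47.5 and 44.2 CPM in the knockout and 192 and 204 CPM in wild-type (−2.11 ± 0.06 SE, adjusted p 2.18e-07). YHM2, a citrate and oxoglutarate carrier gene, had 54.2 and 58.7 CPM against 37.3 and 35.6 CPM (0.63 ± 0.07 SE, adjusted p 0.000110), and was not called without knockout replicate 2 (0.57). In the glutamate list 1 of 4 genes was called, GDH2, the NAD-dependent glutamate dehydrogenase that returns 2-oxoglutarate to the cycle (0.63 ± 0.07 SE, adjusted p 0.000144). Its call was lost without knockout replicate 2 (0.54), without wild-type replicate 2 (0.56) and under the length offset (0.41).

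Regulators were read next. Of 5 genes of the retrograde pathway tested, 2 were called up and none down. DLD3, a D-lactate dehydrogenase gene that the pathway activates, had 1173 and 1266 CPM in the knockout and 529 and 501 CPM in wild-type (1.24 ± 0.06 SE, adjusted p 1.45e-06). LST8, a subunit of the TOR complexes that restrains the pathway, had 704 and 714 CPM against 371 and 372 CPM (0.93 ± 0.05 SE, adjusted p 2.03e-06). It overlaps MRP7 on the other strand by 88 nt. None of 4 HAP genes was called. HAP4, the subunit through which the HAP complex responds to carbon source, had 69.5 and 73.7 CPM in the knockout and 66.9 and 72.2 CPM in wild-type, which overlap. Its log2 fold change of 0.04 ± 0.07 (SE, adjusted p 0.596) took the opposite sign with upper-quartile scaling, without normalization factors and with the length offset.

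Glucose-repressed genes of the glyoxylate route and of gluconeogenesis were not called, 0 of 8, with a median of 0.16. Over all genes tested, 9.08% were called up and 8.15% down. Of the 8, 2 passed the adjusted p on the higher side and 1 on the lower. Both knockout libraries lay above both wild-type libraries in 6 of the 8 and in 40.5% of all genes. MLS1, the highest of the list (0.61), passed the filter on low counts through the knockout alone. General stress genes, by contrast, were called up in 14 of 14, with a median of 1.29 and a range of 0.93 to 2.86. HSP26, a small heat shock protein gene, and TSL1, a trehalose synthase subunit gene, rose by 2.86 ± 0.09 and 2.84 ± 0.08 (SE, adjusted p 2.33e-07 and 2.17e-07). HSP12, a membrane stress protein gene, was counted 26 and 24 times in the knockout libraries, against 8 and 5 times in wild-type (2.61 ± 0.39 SE, adjusted p 0.000578). HSP12 and DDR2 passed the filter on low counts through the knockout alone, so their calls carry little weight. The other 12 passed it in both groups and were called up. Of 5 MATa markers tested, 4 were called down. The stress genes thus moved in the direction of the members and the MATa genes in the opposite direction, and the part of either in the members' rise was not tested.

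**Figure D5:**
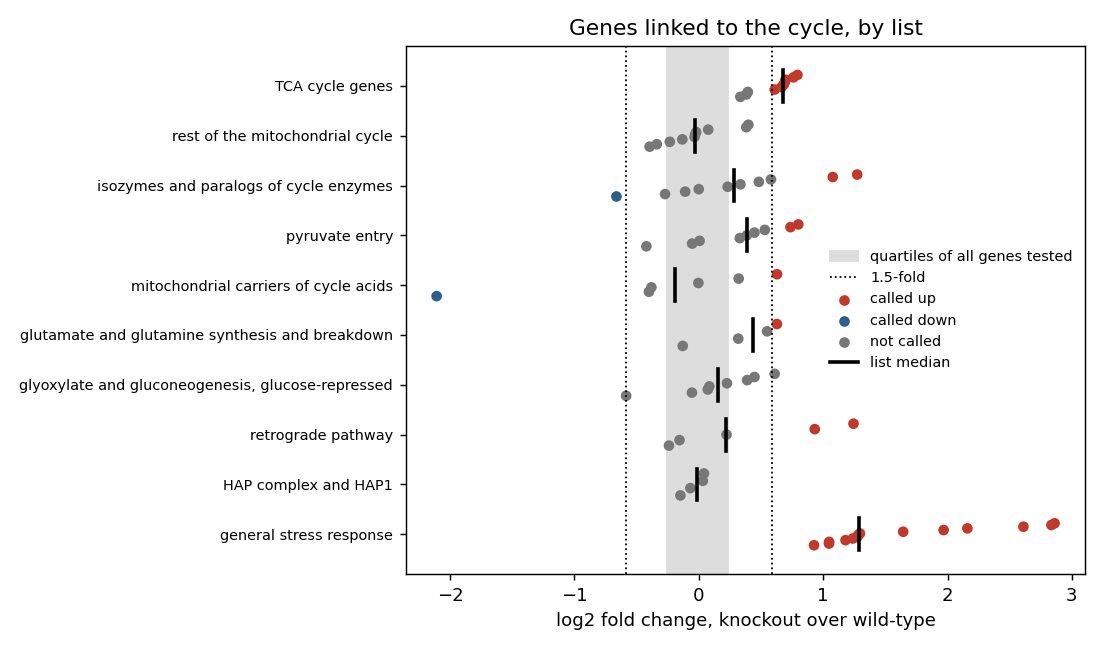
Log2 fold change of knockout over wild-type for each gene tested, by list (points), with list medians (black bars), quartiles of all genes tested (grey band) and a 1.5-fold change (dotted lines). The TCA cycle genes lie between 0.33 and 0.79, the HAP genes near 0 and the stress genes between 0.93 and 2.86.

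The 5 other genes nearest to the mean profile of the members over the 4 libraries were YPK1, TOG1, VMA3, AMD1 and YHM2. Their root mean square distance on the log2 scale, each gene centred on its own mean, was 0.0117 to 0.0192. Among the members MDH1 was nearest to that mean (0.0198) and IDH1 farthest (0.152).

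Whether a member was called depended on the library scaling, the length offset, the test and the libraries kept. All 10 genes had positive log2 fold changes in each alternative tried. The number called up was 5 with upper-quartile factors, beside 373 of all 4845 genes tested. It was 2, ACO1 and SDH1, without normalization factors, beside 308 of all genes. With DESeq2 tested against a fold change of 1.5 it was 1, ACO1, beside 229 of all genes. The median over all genes was −0.10 with upper-quartile factors and −0.17 without normalization factors, in place of −0.02. The difference between the members' median and that of all genes, which a library scaling leaves at 0.69, was 0.63 with the length offset and between 0.61 and 0.74 when a library was left out.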

How the data were processed

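4tU-labelled RNA of 2 knockout and 2 wild-type libraries was sequenced with paired ends, and the titles of the samples gave groups and replicate numbers. The paper calls the replicates biological. The authors aligned reads to sacCer3 with STAR 2.3.0, filtered proper pairs with SAMtools and counted reads per region with HTSeq, and the deposited table holds these raw counts. Whether counting used strand is not stated. All 4970 regions lay within assembly R64, and 4825 identifiers matched RefSeq locus tags. The authors' other deposited table, of their own DESeq2 fold changes and p-values, was not used.

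Genes with a mean count over DESeq2 1.42.0 size factors of at least 30 in either group were kept. Counts were scaled by TMM and tested with the quasi-likelihood test of edgeR 4.0.16 in R 4.3.3, with group as the only term and Benjamini-Hochberg adjustment over 4845 genes. A call required adjusted p below 0.1 together with more than a 1.5-fold change. The standard error is the log2 fold change over the square root of F. No spike-in RNA was used, so each change is relative to the rest of its library. The scripts were tested on simulated data. Plots were made in Python 3.11.15 (matplotlib 3.10.9).

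The members and lists were chosen with earlier results of these data known. Named genes are the 10 members, SYC1, the other cycle genes, CIT2, DLD3, HAP4, the 3 called genes of each further list with the largest change, and the 5 genes nearest in profile. Alternatives covered scaling, filter, test, fold change minimum, replicate block, length offset and leaving out each library.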

Additional observations from a re-analysis of the deposited data

How the results depend on the processing

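Across the settings tried, 137 values of single members kept their direction and call, 20 were no longer called and 0 changed direction. A further 3, those of IDH1, KGD2 and LSC1, were called only where the fold change minimum was dropped. That setting reuses the main fit, so its fold changes are unchanged. The members called up numbered 2 without normalization factors and 1 (ACO1) with DESeq2 against a fold change of 1.5, and ranged from 5 to 7 when a library was left out; 0 were called down in each setting. The members' median log2 fold change was 0.69 with DESeq2 size factors and with the DESeq2 Wald test, 0.59 with upper-quartile factors, 0.52 without normalization factors and 0.58 with the length offset, with or without the replicate block, and ranged from 0.59 to 0.73 when a library was left out. The ratio of summed shares was 1.38 without ACO1. Over all genes, the calls down made up 47.3% of calls, 58.4% with upper-quartile factors, 68.0% without normalization factors and 35.7% with DESeq2 against 1.5-fold.

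Without a fold change minimum, the calls up and down were 2 and 3 for the other cycle genes, 5 and 2 for the isozymes, 6 and 1 for pyruvate entry, 2 and 3 for the carriers, 3 and 1 for glutamate, 2 and 1 for the glyoxylate list and 3 and 2 for the retrograde list. With DESeq2 against 1.5-fold, 0 isozymes were called down and 0 genes of pyruvate entry, the carriers and glutamate were called up. Carriers and glutamate genes called up numbered 0 with upper-quartile factors and without normalization factors, and 1 gene of pyruvate entry was called up without those factors. With the length offset, alone or with the replicate block, 1 gene of pyruvate entry and 0 of glutamate were called up. In the glyoxylate list 1 gene was called down with upper-quartile factors, without normalization factors, with the replicate block and with the length offset, and 1 was called up with the crossed block. When a library was left out, the calls up ranged from 1 to 3 for pyruvate entry, 0 to 1 for the carriers and 0 to 2 for glutamate, and the calls down from 1 to 2 for the carriers and 0 to 1 for the glyoxylate list.

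Single genes that changed sign were near 0. With the length offset, KGD4 was 0.13, SDH7 0.17, SDH8 0.048 and HAP4 −0.10, and with the replicate block added they were 0.13, 0.16, 0.051 and −0.10. With upper-quartile factors SDH6 was −0.0080 and HAP4 −0.043, and without normalization factors −0.076 and −0.11. When a library was left out, SDH7 ranged from −0.17 to 0.087, FUM1 from −0.11 to 0.058 and HAP4 from −0.012 to 0.098. The cause of these shifts was not tested.

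Deviations of same-numbered libraries correlated at −0.18 over 4845 genes, so the numbers were not taken to pair the samples. With the replicate block, 7 members were called up. The crossed pairing, chosen after seeing the data, also gave 7.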
